A study of Nicotiana tabacum with 9 samples.

Results

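Mature pollen carries a store of transcripts that were made before germination, and the tube that grows out of the grain draws on this store while it makes new RNA. The transcriptome of a tube therefore shifts with its age, and heat shifts it further, in plants mainly through heat shock factors and the chaperone genes they control. A transcript can thus be lower in older tubes whether or not the tubes were heated, and the genes described here were chosen for that pattern. They are the tobacco genes whose transcript level at 6 h of growth was at most 50% of the level at 3 h and differed little between heated tubes and unheated tubes of the same age. They were chosen by their measured levels, namely TMM-scaled CPM values (counts per Mio counts, corrected for library composition) averaged per condition. A gene was kept when its mean was at least 1 CPM after 3 h, when the log2 ratio of the 6 h mean to the 3 h mean was at most -1, and when the log2 ratio of the heat mean to the 6 h mean lay within 0.5 of 0. Of the 24013 genes that passed 0.5 CPM in at least 2 of the 9 libraries, out of 74044 in the tables, 72 genes or 0.3% were kept. Because both contrasts chose the genes, their levels and fold changes are given as a description, without support from any test.

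Pollen tubes of the tobacco cultivar Samsun-NN, grown in vitro on cellophane over solid medium, were sequenced in 3 conditions with 3 libraries each. HS 3 + 3 h tubes had 3 h at room temperature (RT) and then 3 h at 37°C, RT 6 h tubes had 6 h at RT, and RT 3 h tubes had 3 h at RT. The pollen of all 3 groups was pooled from several plants, HS 3 + 3 h and RT 6 h tubes were of the same age, and RT 3 h tubes were younger. The sources used do not say if replicate libraries stem from different pools of pollen, so the spread between them and the p-values built on it may be technical. In bulk RNA of this kind, fewer cells with a transcript and less of it per cell cannot be told apart.

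The libraries held between 14931693 and 26772286 counts on genes, and HS 3 + 3 h replicate 1 was the shallowest. TMM factors were 0.896 to 0.906 for HS 3 + 3 h, 0.988 to 1.02 for RT 6 h and 1.09 to 1.13 for RT 3 h, and without them the median log2FC over all genes moved to -0.15 for HS 3 + 3 h over RT 6 h and to -0.13 for RT 6 h over RT 3 h. The 4 pollen genes ntp101, ntp201, ntp805 and Npg1 summed to 45066 to 47068 CPM in HS 3 + 3 h, 40929 to 44697 CPM in RT 6 h and 32668 to 36142 CPM in RT 3 h libraries. The 5 leaf genes Lhcb4, Lhcb5, Lhcb6, CAB21 and PSBR summed to at most 0.455 CPM in any library, and Lhcb4 was at 0 in all RT 3 h libraries. The pollen genes were thus abundant throughout and lower in the RT 3 h libraries, and their part in the pattern of the 72 genes was not tested. Replicate pairs differed by more than sampling noise, with a chi-square per degree of freedom of 1.68 to 6.06, so each library was counted as 1 sample.

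The 72 genes summed to 1863 ± 129 CPM in HS 3 + 3 h tubes, 1915 ± 41.5 CPM in RT 6 h tubes and 4194 ± 264 CPM in RT 3 h tubes (SD, n = 3 each). A large share of each sum came from LOC107828857, and without it the sums were 1078 ± 54.1, 1044 ± 29.6 and 2444 ± 144 CPM in the same order of conditions. The median gene stood at 46.4% of its RT 3 h level under HS 3 + 3 h, with a range of 30.1 to 66.2%, and at 45.8% at RT 6 h, with a range of 32.7 to 49.9%. The genes were thus lowered to a similar degree in both kinds of older tube, as the rule requires. The wider range in the heated ones is also allowed by the rule, which limits them only relative to RT 6 h. Most lay close to the growth limit: the log2 ratio of RT 6 h to RT 3 h ran from -1.61 to -1.003, with 48 genes above -1.2 and 7 at or below -1.4. The log2 ratio of HS 3 + 3 h over RT 6 h ran from -0.42 to 0.50, with 44 genes above 0 and 28 below, and 38 genes lay within 0.25 of 0.

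**Figure D1:**
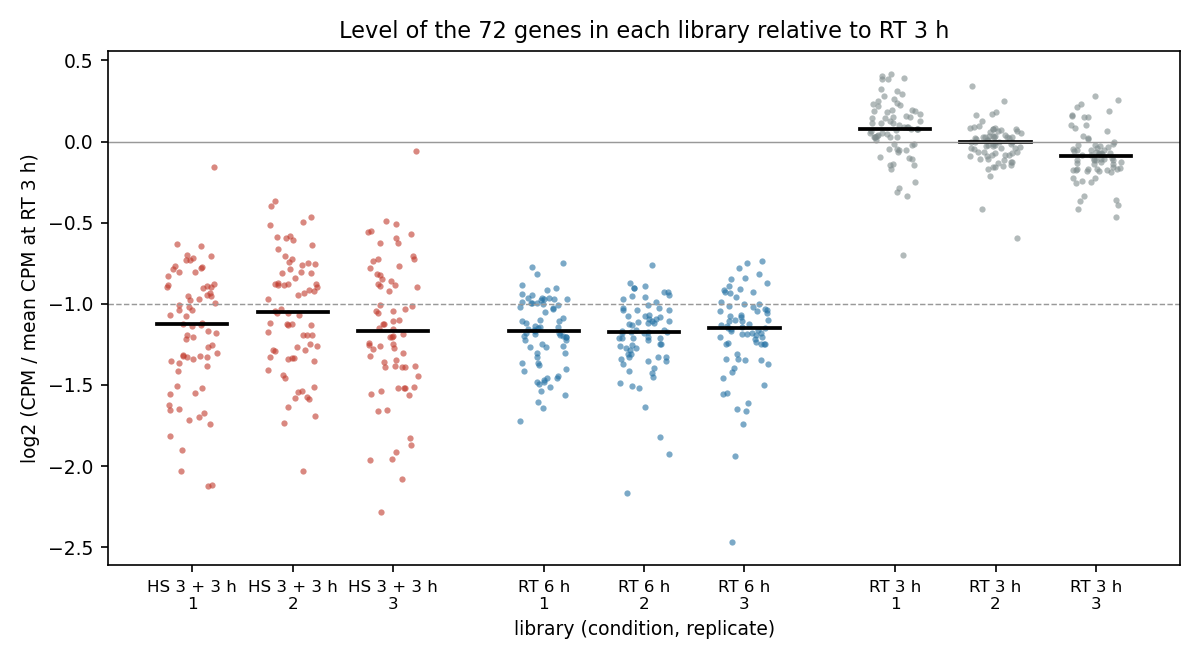
Each point is 1 of the 72 genes in 1 library, drawn as the log2 ratio of its CPM to its mean CPM at RT 3 h, with the libraries of HS 3 + 3 h, RT 6 h and RT 3 h from left to right. Black bars are medians over the 72 genes, the solid line marks the RT 3 h mean and the dashed line a log2 ratio of -1; the bars of the HS 3 + 3 h and RT 6 h libraries lie near -1.1, and those of the RT 3 h libraries near 0.

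Library by library, all 3 RT 6 h values lay below all 3 RT 3 h values in 72 of the 72 genes, a separation seen in 18.9% of all expressed genes. The HS 3 + 3 h values lay below all RT 3 h values in 71 genes, against 26.5% of all expressed genes, and LOC107795699 was the exception. Both counts follow from the rule. HS 3 + 3 h and RT 6 h values overlapped in 43 genes, while the HS 3 + 3 h values were all above in 20 and all below in 9; values that do not overlap in either direction were found in 49.2% of all expressed genes. By edgeR's quasi-likelihood test at an absolute log2FC above 1 and an FDR of at most 0.005, 64 of the 72 genes were called lower at RT 6 h than at RT 3 h, against 0.785% of all genes tested, and 69 met the FDR limit alone, against 7.92%. The other 3 genes were LOC107811675, which sits at the limits of level and growth, and LOC107824165 and LOC107821466, which are named because they failed the test. The rule chose the 72 genes by the same ratio in the same libraries, so these calls are a description and no support.

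The genes were widely spread in level. At RT 3 h, 17 genes had 1 to 2 CPM, 24 had 2 to 10 CPM, 24 had 10 to 100 CPM and 7 had at least 100 CPM, with a median of 5.84 CPM against 4.93 CPM for the 17065 genes that met the level limit. No function is given for the most abundant of them in the annotation used here, so they are described by identifier. LOC107828857 was the highest, also per exon length, with 318 RPKM (reads per kilobase of exon and Mio counts) under HS 3 + 3 h, 353 RPKM at RT 6 h and 709.8 RPKM at RT 3 h. It lies at 2603 to 6552 on the - strand of TN90 scaffold NW_015852154.1 in 6 exon blocks. Its HS 3 + 3 h libraries had 696, 841 and 817 CPM, its RT 6 h libraries 871, 859 and 883 CPM, and its RT 3 h libraries 1815, 1830.1 and 1606 CPM. The heated libraries all lay below the RT 6 h libraries, by less than the gap that set both apart from RT 3 h: log2FC was -0.15 ± 0.04 (SE) for HS 3 + 3 h over RT 6 h and -0.999 ± 0.05 for RT 6 h over RT 3 h. This gene stood just inside the growth limit and was kept in 6 of the 9 choices made with 1 library left out.

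LOC107827622 followed, at 32713 to 36658 on the - strand of NW_015848069.1, with 181, 206 and 190 CPM in HS 3 + 3 h, 171, 165 and 190.5 CPM in RT 6 h and 438, 474 and 443 CPM in RT 3 h libraries. LOC107799267 had 111, 124 and 118 CPM in HS 3 + 3 h, 108, 107.5 and 118 CPM in RT 6 h and 274, 293 and 268 CPM in RT 3 h libraries. Heated and unheated 6 h libraries of both genes overlapped, with a log2FC between them of 0.13 ± 0.05 for LOC107827622 and 0.08 ± 0.05 for LOC107799267, while RT 3 h stood far above. LOC107816586 had 75.6, 86.6 and 84.5 CPM in HS 3 + 3 h, 92.0, 89.4 and 99.4 CPM in RT 6 h and 233, 227 and 204.5 CPM in RT 3 h libraries. LOC107776905 had 56.5, 60.8 and 53.2 CPM in HS 3 + 3 h, 75.3, 74.7 and 74.5 CPM in RT 6 h and 194, 192 and 179.7 CPM in RT 3 h libraries. In both, every heated library was below every RT 6 h library, and LOC107776905 at 30.1% of its RT 3 h level had the lowest share under HS 3 + 3 h of the 72 genes. LOC107811807 had 81.3, 101 and 100.1 CPM in HS 3 + 3 h, 88.8, 76.6 and 81.3 CPM in RT 6 h and 202, 172 and 157 CPM in RT 3 h libraries. LOC107782647 had 46.2, 53.7 and 52.6 CPM in HS 3 + 3 h, 59.8, 54.4 and 50.4 CPM in RT 6 h and 136, 110.5 and 105 CPM in RT 3 h libraries. The last of these is short, with 962 bases of exon, and per exon length it had rank 3 of the 72 genes with 52.8 RPKM under HS 3 + 3 h, 57.0 RPKM at RT 6 h and 122 RPKM at RT 3 h.

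The lowest ratios of RT 6 h to RT 3 h belonged to genes of low and middle level, though the abundant LOC107827622 followed at rank 11 with -1.36. LOC107787155 had 0.296, 0.592 and 0.410 CPM in HS 3 + 3 h, 0.501, 0.534 and 0.234 CPM in RT 6 h and 1.24, 1.36 and 1.28 CPM in RT 3 h libraries, a log2 ratio of -1.61 for RT 6 h to RT 3 h. LOC107799272 had 4.82, 4.74 and 4.37 CPM in HS 3 + 3 h, 3.97, 3.47 and 3.94 CPM in RT 6 h and 8.84, 11.5 and 12.05 CPM in RT 3 h libraries, a log2 ratio of -1.51. The older libraries of both genes were low throughout, and LOC107799272 was slightly higher in each heated library than in each RT 6 h library. LOC107788797 had 24.5, 29.9 and 28.2 CPM in HS 3 + 3 h, 21.4, 19.9 and 21.7 CPM in RT 6 h and 71.3, 54.7 and 45.3 CPM in RT 3 h libraries. LOC107782770 had 13.9, 17.5 and 15.0 CPM in HS 3 + 3 h, 18.8, 15.3 and 14.7 CPM in RT 6 h and 51.1, 39.8 and 38.0 CPM in RT 3 h libraries. In these last genes the RT 3 h libraries were unequal, with replicate 1 the highest. RT 3 h replicate 1 was the highest RT 3 h library in 44 of the 72 genes or 61.1%, against 56.8% of the 183 growth-lowered genes and 37.8% of all expressed genes, and the median log2 ratio of replicate 1 to replicate 3 was 0.16 over the 72 genes and 0.01 over the genes that met the level limit. The rule used these libraries, and the part of RT 3 h replicate 1 in the choice is shown by the count without it, 61 genes, of which 54 were among the 72.

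Only 16 of the 72 genes carried a name or an Arabidopsis homolog in the sources used, 13 through a homolog and 3 through a name, and 56 carried neither. The study's lists of regulators and lipid genes were sources of these homologs, so their part in the 16 is no result. Of the 72 genes, 7 were on the list of transcriptional regulators, which held 1319 of the 24013 expressed genes. Such proteins bind DNA or chromatin and set which genes are transcribed, and the roles given here are known from Arabidopsis. LOC107769242 is the homolog of AT1G49560, a DNA-binding factor of the G2-like family, and lies at 6692 to 9084 on the + strand of NW_015889226.1. It had 1.63, 2.14 and 2.14 CPM in HS 3 + 3 h, 1.84, 1.45 and 2.34 CPM in RT 6 h and 5.37, 5.22 and 4.78 CPM in RT 3 h libraries. The values of heated and unheated older tubes overlapped, with a log2FC of 0.10 ± 0.20, and both were far below RT 3 h, with a log2FC of -1.44 ± 0.16 for RT 6 h over RT 3 h. LOC107807450 is the homolog of AT4G00150, a GRAS regulator that maintains shoot meristems. It had 0.593, 0.684 and 0.501 CPM in HS 3 + 3 h, 0.418, 0.458 and 0.429 CPM in RT 6 h and 1.04, 1.13 and 1.28 CPM in RT 3 h libraries, so that every heated library was above every RT 6 h library.

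LOC107808546 is the homolog of AT5G46910, a Jumonji histone demethylase that removes methyl groups from histone H3, and was the most abundant of the regulators with 13.6, 11.6 and 12.1 CPM in HS 3 + 3 h, 16.9, 16.2 and 16.1 CPM in RT 6 h and 34.8, 34.5 and 34.5 CPM in RT 3 h libraries. It was lower in every heated library than in every RT 6 h library, with a log2FC of -0.42 ± 0.08, beside -1.07 ± 0.07 for RT 6 h over RT 3 h. LOC107826232 is the homolog of AT3G48440, a CCCH zinc finger protein, and had 6.82, 5.97 and 5.01 CPM in HS 3 + 3 h, 6.31, 7.41 and 6.79 CPM in RT 6 h and 14.2, 14.7 and 14.1 CPM in RT 3 h libraries. Its heated and unheated older libraries overlapped. LOC107803606 is the homolog of AT5G66870, a LOB domain regulator of lateral organ boundaries, and had 1.56, 1.78 and 1.55 CPM in HS 3 + 3 h, 2.171, 1.79 and 1.72 CPM in RT 6 h and 4.63, 3.72 and 3.83 CPM in RT 3 h libraries. It overlapped likewise between heated and unheated 6 h tubes.

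The 2 MADS box genes were low and noisy. LOC107777734, homolog of AT4G22950, which promotes flowering as AGL19, had 1.78, 0.684 and 0.911 CPM in HS 3 + 3 h, 1.13, 0.878 and 0.859 CPM in RT 6 h and 2.20, 1.81 and 1.94 CPM in RT 3 h libraries. LOC107795699, homolog of AT3G57230, the flowering repressor AGL16, had 0.741, 0.547 and 1.32 CPM in HS 3 + 3 h, 0.418, 0.611 and 0.820 CPM in RT 6 h and 0.850, 1.64 and 1.64 CPM in RT 3 h libraries. LOC107795699 was the gene whose heated libraries overlapped RT 3 h, and it stood just inside the heat limit. Its exons overlap those of LOC107795714, so reads in the shared stretch cannot be told apart in libraries without strand. The extent of this overlap was not measured. Of the 9 choices with 1 library left out, LOC107777734 was kept in 6 and LOC107795699 in 5. On the regulator list as a whole, 1272 genes were tested for growth, of which 15 were called higher and 14 lower at RT 6 h than at RT 3 h, with a median log2FC of 0.01, beside 210 higher and 181 lower among all genes with the same median. By the rule's means, 14 regulators were at or below -1, of which 7 were within the heat limit, 7 were higher under HS 3 + 3 h and 0 were lower, while the 183 growth-lowered genes of all kinds comprised 72, 73 and 38. The study chose this list from genes expressed in these samples, and the difference between these shares was not tested.

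**Figure D2:**
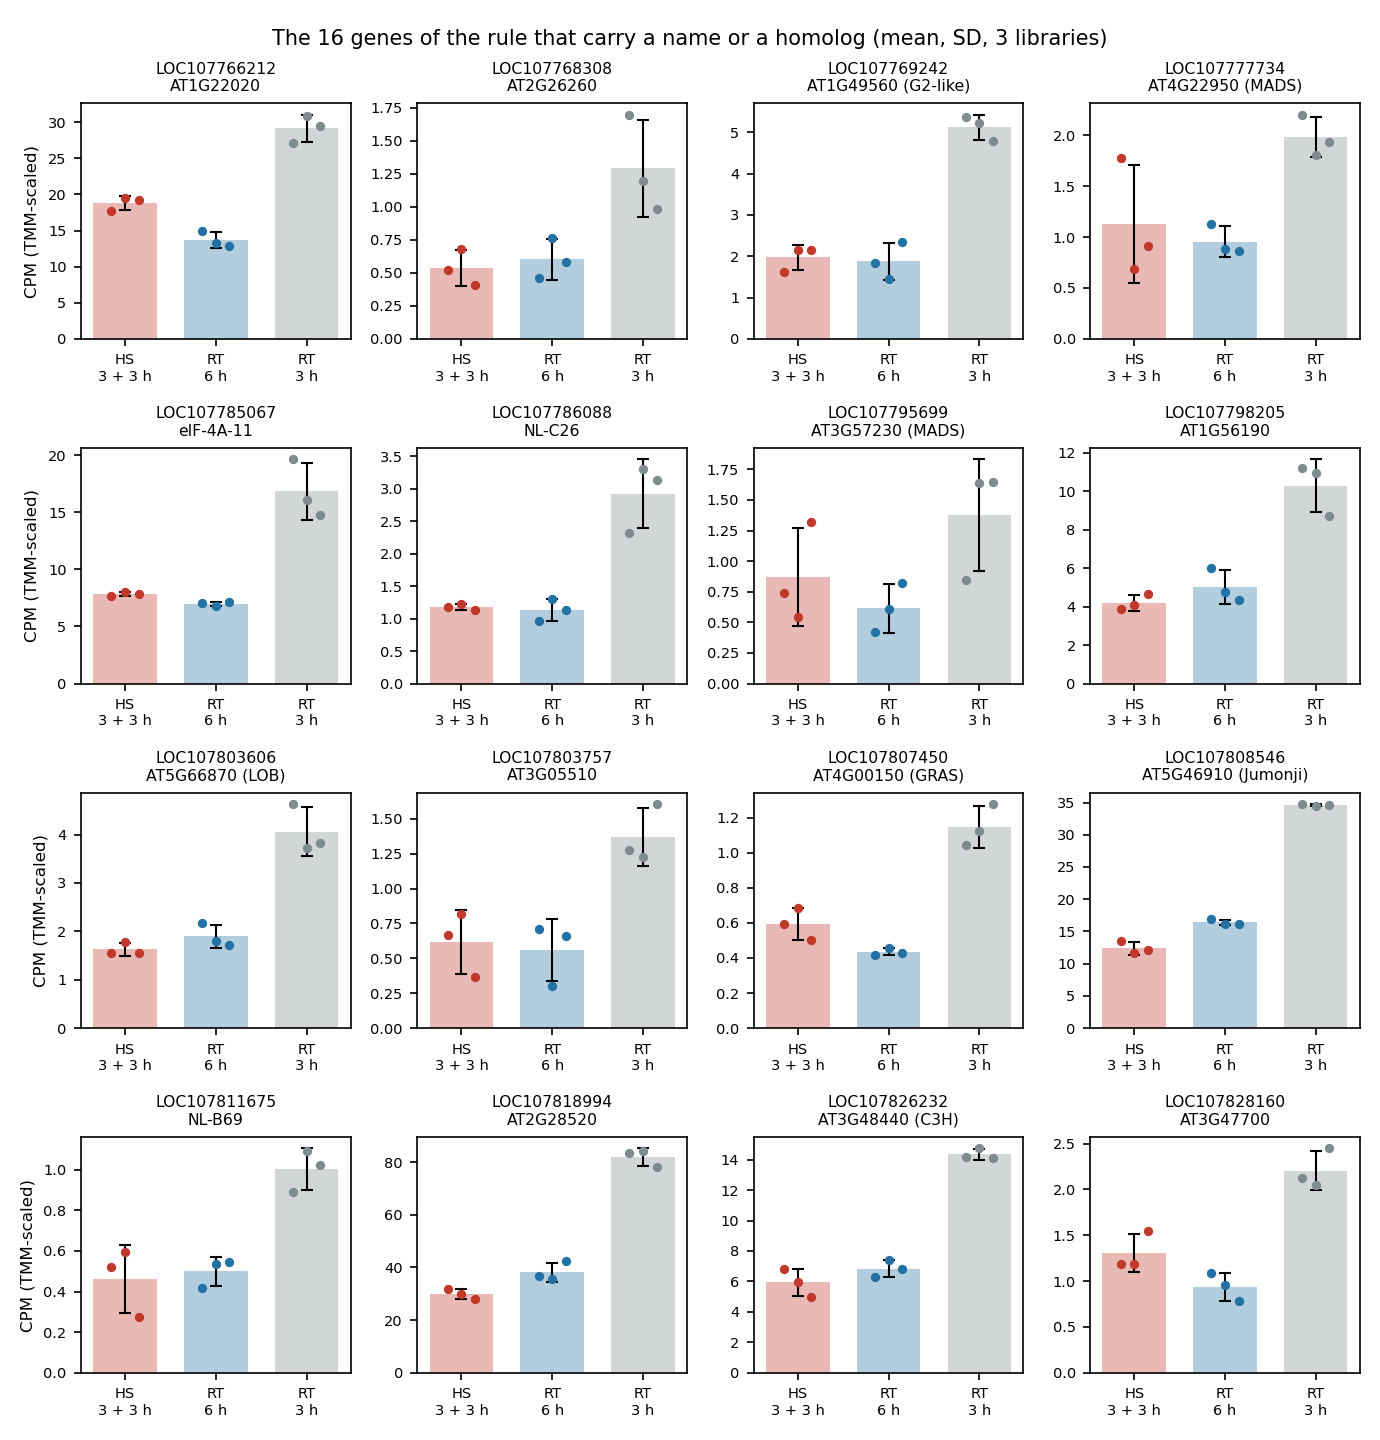
CPM (TMM-scaled, vertical axes from 0, each with its own scale) of the 16 genes of the rule with a name or homolog, in HS 3 + 3 h, RT 6 h and RT 3 h tubes. Bars are means and whiskers SD of 3 libraries, points are libraries; the RT 3 h bar is the tallest in every panel, and points of heated and RT 6 h tubes overlap in most panels but are apart in LOC107808546 and LOC107766212, among others.

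Lipid metabolism, which supplies membrane to the growing tip, was represented by 2 genes of low level. LOC107803757, homolog of AT3G05510, a phospholipid/glycerol acyltransferase family protein, had 0.667, 0.820 and 0.364 CPM in HS 3 + 3 h, 0.710, 0.305 and 0.663 CPM in RT 6 h and 1.27, 1.23 and 1.61 CPM in RT 3 h libraries. LOC107768308, homolog of AT2G26260, a hydroxysteroid dehydrogenase that acts in the demethylation of sterols, had 0.519, 0.684 and 0.410 CPM in HS 3 + 3 h, 0.459, 0.763 and 0.585 CPM in RT 6 h and 1.70, 1.19 and 0.986 CPM in RT 3 h libraries. Heated and unheated older libraries overlapped in both. LOC107827585, the other homolog of AT3G05510 with expression here, was also lower at RT 6 h but was not among the 72 genes, with 4.32 ± 0.659 CPM in HS 3 + 3 h, 1.98 ± 0.127 CPM in RT 6 h and 4.55 ± 0.813 CPM in RT 3 h tubes (SD, n = 3 each). Its level in heated tubes was near that of RT 3 h tubes, unlike that of LOC107803757, and the difference between the homologs was not tested. Of the 699 lipid genes tested for growth, 7 were called higher and 7 lower at RT 6 h, with a median log2FC of 0.00, beside 210 higher and 181 lower among the 23043 genes tested, with a median of 0.01. By the rule's means 6 were at or below -1, of which 2 were within the heat limit, 4 were higher under HS 3 + 3 h and 0 were lower.

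Among the 16 genes with a name or homolog, membrane traffic and ion pumping were represented by a pair. LOC107818994 is the homolog of AT2G28520, a subunit a of the vacuolar H+-ATPase, the proton pump of the endomembrane system, and lies at 74393 to 85343 on the - strand of NW_015820826.1 in 18 exon blocks. It had 31.8, 29.9 and 27.9 CPM in HS 3 + 3 h, 36.8, 35.5 and 42.3 CPM in RT 6 h and 83.6, 84.0 and 78.2 CPM in RT 3 h libraries. Every heated library was below every RT 6 h library, with a log2FC of -0.36 ± 0.06, and HS 3 + 3 h over RT 3 h came to -1.47 ± 0.07. LOC107828160 is the homolog of AT3G47700, the MAG2 protein that serves transport between the endoplasmic reticulum and the Golgi. It had 1.19, 1.19 and 1.55 CPM in HS 3 + 3 h, 1.09, 0.954 and 0.780 CPM in RT 6 h and 2.12, 2.05 and 2.45 CPM in RT 3 h libraries. Here the heated libraries were all above the RT 6 h libraries, and the log2 ratio of 0.47 was among the closest to the heat limit.

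Central metabolism was likewise represented among these 16 genes by a pair of enzymes. LOC107766212 is the homolog of AT1G22020, a serine hydroxymethyltransferase, which converts serine to glycine and feeds one-carbon metabolism. It had 17.7, 19.5 and 19.3 CPM in HS 3 + 3 h, 14.9, 13.3 and 12.9 CPM in RT 6 h and 27.1, 30.9 and 29.5 CPM in RT 3 h libraries. The 3 conditions were apart, with heated tubes in between: log2FC was 0.47 ± 0.08 for HS 3 + 3 h over RT 6 h, -0.63 ± 0.08 for HS 3 + 3 h over RT 3 h and -1.08 ± 0.08 for RT 6 h over RT 3 h. LOC107798205 is the homolog of AT1G56190, a phosphoglycerate kinase, which forms ATP in glycolysis and runs in reverse in carbon fixation. It had 3.85, 4.10 and 4.65 CPM in HS 3 + 3 h, 6.01, 4.73 and 4.33 CPM in RT 6 h and 11.2, 10.9 and 8.69 CPM in RT 3 h libraries. Its heated and unheated older libraries overlapped, and it was kept in 5 of the 9 choices with 1 library left out.

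Translation was represented among these 16 genes by LOC107785067, named eIF-4A-11, at 4470 to 9171 on the - strand of NW_015911751.1. eIF-4A proteins are RNA helicases that unwind the leader of an mRNA so that the ribosome can find its start codon. The gene had 7.71, 8.02 and 7.83 CPM in HS 3 + 3 h, 7.02, 6.80 and 7.10 CPM in RT 6 h and 19.7, 16.1 and 14.8 CPM in RT 3 h libraries, with a log2FC of 0.17 ± 0.10 for HS 3 + 3 h over RT 6 h and -1.26 ± 0.10 for RT 6 h over RT 3 h. Heated tubes were slightly above RT 6 h tubes in every library and both were far below RT 3 h tubes. It was the only one among the 8 eIF-4A genes named in the reference table that met the rule. LOC107764101, named eIF-4A-14, was lower at RT 6 h by about as much but higher in heated tubes, with 28.3 ± 2.60 CPM in HS 3 + 3 h, 15.8 ± 0.415 CPM in RT 6 h and 34.7 ± 4.20 CPM in RT 3 h tubes (SD, n = 3 each). LOC107783883, named eIF-4A-7 and the most abundant of the family by CPM, had 48.8 ± 4.26 CPM in HS 3 + 3 h, 25.6 ± 0.598 CPM in RT 6 h and 45.6 ± 4.32 CPM in RT 3 h tubes. The means of all 8 genes were lower at RT 6 h than at RT 3 h, with the log2 ratio between -1.27 and -0.20, and the log2 ratio of HS 3 + 3 h over RT 6 h lay between 0.05 and 0.93. By edgeR's quasi-likelihood test 2 of the 8 were called lower at RT 6 h than at RT 3 h, against 0.785% of all genes tested. LOC107785067 was among the 2 and had been chosen by this ratio, so the count is no support for a family pattern. The family was chosen after its values were seen, its members are similar in sequence so that reads may be shared among them, and differences between its members were not tested.

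**Figure D3:**
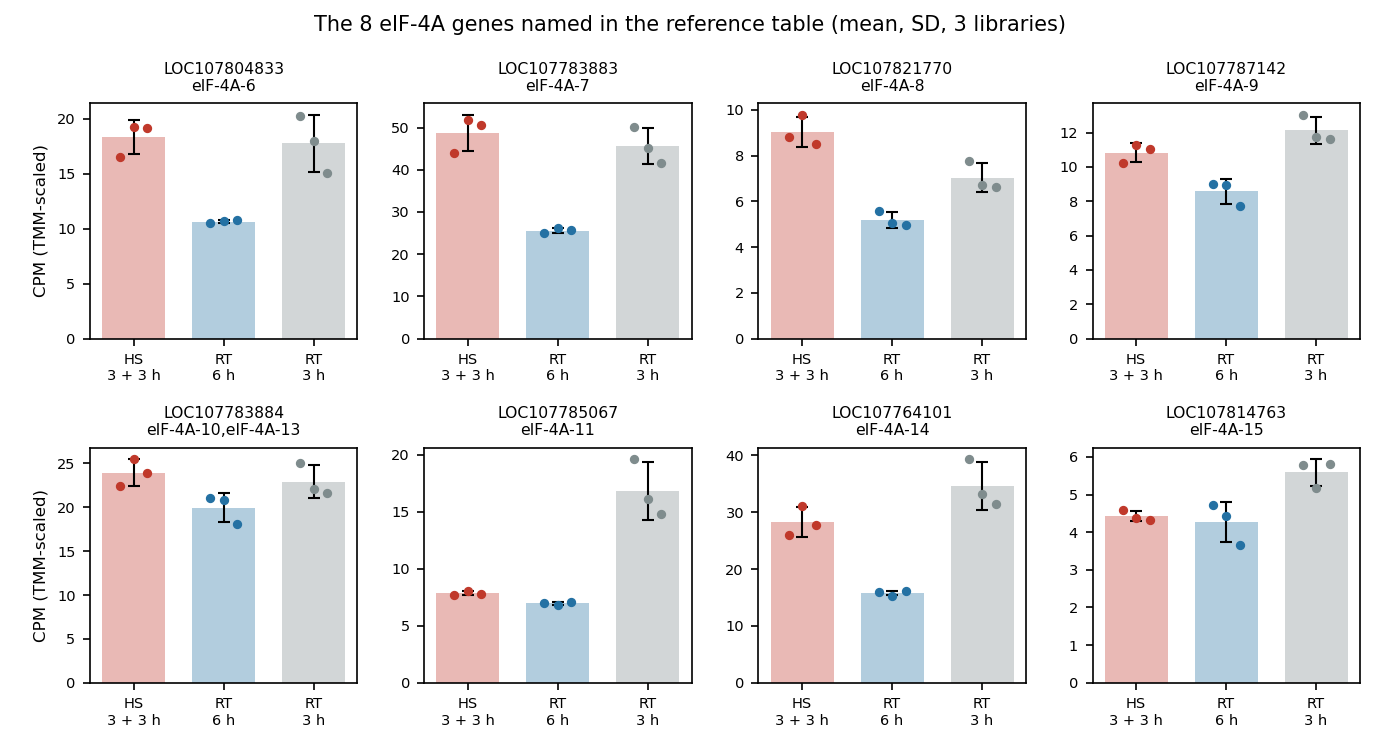
CPM (TMM-scaled, vertical axes from 0, each with its own scale) of the 8 genes that the reference table names as eIF-4A, in HS 3 + 3 h, RT 6 h and RT 3 h tubes, with bars for means, whiskers for SD and points for the 3 libraries. In eIF-4A-11 the heated and RT 6 h bars are alike, at 7.85 and 6.97 CPM, while in eIF-4A-14 the heated bar, at 28.3 CPM, is far above the RT 6 h bar, at 15.8 CPM.

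The other named genes were LOC107786088, named NL-C26, and LOC107811675, named NL-B69, for which no role is given. LOC107786088 had 1.19, 1.23 and 1.139 CPM in HS 3 + 3 h, 0.960, 1.30 and 1.13 CPM in RT 6 h and 2.32, 3.31 and 3.14 CPM in RT 3 h libraries. LOC107811675 had 0.519, 0.592 and 0.273 CPM in HS 3 + 3 h, 0.418, 0.534 and 0.546 CPM in RT 6 h and 0.888, 1.09 and 1.02 CPM in RT 3 h libraries. Heated and RT 6 h libraries overlapped in both, and LOC107811675 was the lowest of the 72 genes at RT 3 h.

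In 5 genes, or 6.94% of the 72, the annotation gave no coding part. The share was 11.5% of all expressed genes and 9.81% of those that met the level limit. The 5 were LOC107763473, LOC107763553, LOC107770795 and LOC107799027, which the reference table lists as long noncoding RNAs, and LOC107772684. All but LOC107763473 are named after their values were seen. LOC107763473 was the most abundant of them, with 8.52, 9.07 and 8.38 CPM in HS 3 + 3 h, 6.97, 6.87 and 6.05 CPM in RT 6 h and 15.4, 13.5 and 12.6 CPM in RT 3 h libraries. Its 3 conditions did not overlap, with heated tubes between the others. LOC107799027 overlaps the exons of LOC107799026, so its counts carry the same uncertainty as those of LOC107795699. Exon length, which the rule did not use, had a median of 1722 bases over the 72 genes, with a range of 433 to 4584, and 1706 bases over all expressed genes. The median number of exon blocks was 4 and 5 in the same comparison. Of the 72 genes 9 or 12.5% had a single block, against 7.07% of all expressed genes and 6.53% of those meeting the level limit. The 72 genes lay on 72 different scaffolds, so none were annotated as neighbours.

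The heat difference was measured with unequal precision from gene to gene. By edgeR's quasi-likelihood test, 0 of the 70 genes that could be tested were called between HS 3 + 3 h and RT 6 h, against 9.11% of all genes tested, and edgeR's likelihood ratio test and DESeq2 also called 0. The limit of 0.5 that chose the genes keeps any of them from a log2FC of 1, so this count carries no information about them. At an unadjusted p under 0.05, 24 of the 70 differed, against 49.8% of all genes tested. LOC107811237 and LOC107831864 were below the filter in these 6 libraries and were not tested. The 95% interval of the heat log2FC lay wholly within 0.5 of 0 in 24 genes, wholly within 1 of 0 in 63, and reached past 1 in 7, all of which had at most 2.22 CPM at RT 3 h. Median SE was 0.29 for the 31 tested genes under 5 CPM at RT 3 h and 0.08 for the 39 at or above it. For the 7 genes, which include LOC107807450, LOC107828160 and LOC107795699, the interval takes in a heat difference of 2-fold.

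**Figure D4:**
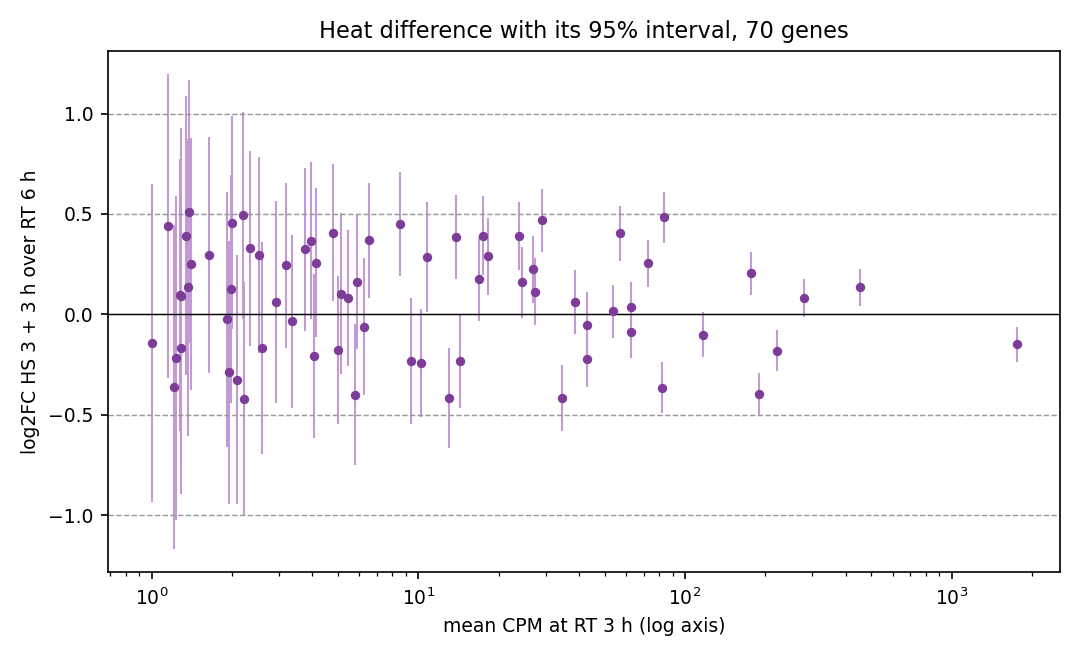
The log2FC of HS 3 + 3 h over RT 6 h (points) with its 95% interval (lines, edgeR's quasi-likelihood fit) for the 70 tested genes, against the mean CPM at RT 3 h on a log axis; dashed lines mark 0.5 and 1 in both directions. Intervals narrow with level: 24 lie within 0.5 of 0, and the 7 that reach past 1 are at or under 2.22 CPM.

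Even so, the heat difference of 15 genes had an FDR of at most 0.005 without a fold limit, against 31.9% of all genes tested, so the label of genes that heat leaves unchanged holds for them only within the limit of 0.5. All 15 had at least 8.57 CPM at RT 3 h. The 9 higher under HS 3 + 3 h were LOC107784632, LOC107766212, LOC107787868, LOC107788797, LOC107792571, LOC107815457, LOC107763473, LOC107788513 and LOC107811807. Of these LOC107787868 is outside the rule for naming and is named for this result. LOC107784632 had 40.7, 46.6 and 48.7 CPM in HS 3 + 3 h, 29.9, 31.3 and 36.7 CPM in RT 6 h and 86.0, 86.7 and 77.5 CPM in RT 3 h libraries, with the largest log2FC of the 15, 0.48 ± 0.06. The 6 lower under HS 3 + 3 h were LOC107796967, LOC107808546, LOC107776905, LOC107818994, LOC107816586 and LOC107828857. LOC107796967 had 4.59, 4.38 and 4.51 CPM in HS 3 + 3 h, 6.43, 6.38 and 5.15 CPM in RT 6 h and 14.2, 12.9 and 12.1 CPM in RT 3 h libraries, with a log2FC of -0.42 ± 0.13 for HS 3 + 3 h over RT 6 h. Without TMM, 9 of the 15 kept an FDR of at most 0.005, of which 3 were higher and 6 lower under HS 3 + 3 h. By DESeq2, 8 of the 15 kept it, 5 higher and 3 lower. A joint fit of all 9 libraries kept 11, a replicate block 12, and leaving out 1 library 10 to 13. The likelihood ratio test and the lack of a filter kept 14 each. DESeq2's size factors in edgeR and a minimum of 10 counts per library kept 15 each. In each of these settings, 0 of the 15 turned their direction. The median heat log2FC of the 70 genes was 0.10 with TMM and -0.06 without it.

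Set against the younger tubes, 42 of the 72 genes were called lower under HS 3 + 3 h than at RT 3 h, where 4.92% of all genes tested were, and 66 met the FDR limit alone, where 16.9% did. The limits of the rule fix this direction, so both counts are a description. The median log2 ratio of HS 3 + 3 h to RT 3 h was -1.11 with a range of -1.73 to -0.60. The 2 limits of the rule bound this ratio from above only. LOC107776905 had the lowest ratio and LOC107787868 the highest. This comparison shares the RT 3 h libraries with that of RT 6 h against RT 3 h.

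Among the 183 growth-lowered genes at 1 CPM or more, the 72 genes were 39.3%, while 73 genes or 39.9% were higher under HS 3 + 3 h than at RT 6 h by a log2 ratio of at least 0.5 and 38 genes or 20.8% were lower by as much. Among all 17065 genes that met the level limit, the shares were 73.0%, 12.04% and 15.0%. The RT 6 h mean is in both ratios, so these shares are not independent of growth and were not tested. The 3 groups were about equally low at RT 6 h, with a median log2 ratio to RT 3 h of -1.13 in the 72 genes, -1.19 in the 73 and -1.17 in the 38. Heated tubes were then at a median log2 ratio to RT 3 h of -1.11, -0.29 and -2.02.

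**Figure D5:**
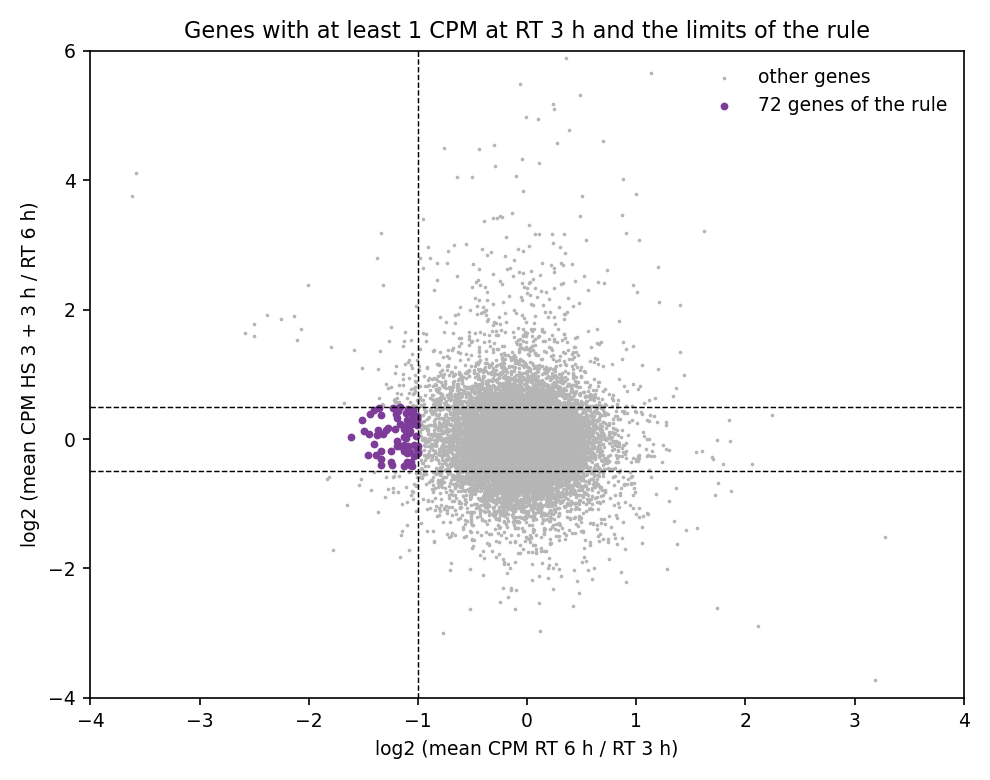
Each point is a gene with at least 1 CPM at RT 3 h, with the log2 ratio of mean CPM at RT 6 h to RT 3 h across and that of HS 3 + 3 h over RT 6 h upward; dashed lines are the limits of the rule and purple points the 72 genes. Most genes lie around 0 on both axes, the 72 genes fill the box at the left, and 5 points lie outside the axes.

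The limits cut through a continuous spread of genes. At the growth limit, LOC107811675, LOC107804838 and LOC107769392 were just inside, with log2 ratios of -1.003, -1.004 and -1.007, and LOC107791737, LOC107766988 and LOC107768141 were just outside, with -0.999, -0.998 and -0.997. LOC107791737 was an abundant gene, with a mean of 366 CPM in HS 3 + 3 h, 281 CPM in RT 6 h and 561 CPM in RT 3 h tubes. At the heat limit, LOC107795699 at 0.50, LOC107828160 at 0.47 and LOC107784632 at 0.47 were inside and LOC107831330 at -0.50, LOC107778296 at 0.51 and LOC107807362 at -0.51 outside. At the level limit, LOC107811675, LOC107807450 and LOC107811237 had 1.001, 1.15 and 1.195 CPM at RT 3 h, while LOC107761148, LOC107775645 and LOC107819056 had 0.998, 0.959 and 0.945 CPM. Of the 72 genes 27 had a growth ratio above -1.1, and 62 further genes met the other limits with a ratio between -1 and -0.9.

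To read the pattern in libraries whose levels were not set against the limits, the rule was applied to the means of 2 replicate numbers. The ratios were then read in the replicate left out. The CPM filter and the TMM scaling still used all 9 libraries, and replicates may share a pool of pollen. The replicate left out was therefore not an independent sample, and its values are a description. With replicate 1 left out, 78 genes were chosen, of which 48 were among the 72. In replicate 1 their median log2 ratio of RT 6 h to RT 3 h was -1.16, with 74 of 78 below 0 and 50 at or below -1, against 51.1% and 2.30% of the 17053 genes that met the level limit in the libraries used to choose and had counts in all of replicate 1. With replicate 2 left out, 100 genes were chosen, 60 of them among the 72, and in replicate 2 the median was -1.05, with 99 of 100 below 0 and 56 at or below -1, against 51.5% and 1.71% of 17110 genes. With replicate 3 left out, 112 genes were chosen, 59 of them among the 72, and in replicate 3 the median was -0.86, with 108 of 112 below 0 and 36 at or below -1, against 51.0% and 1.57% of 17085 genes. Within these limits, the lower level at RT 6 h was seen in nearly all chosen genes in each replicate left out. It was smallest in replicate 3. The log2 ratio of HS 3 + 3 h over RT 6 h in the replicate left out had medians of -0.11, 0.08 and -0.01 for replicates 1, 2 and 3, and lay within 0.5 of 0 in 49 of 78, 67 of 100 and 84 of 112 genes, or 62.8%, 67.0% and 75.0%. Over all genes that met the level limit the shares were 66.3%, 68.9% and 68.6%, so the chosen genes stood near the background in their heat ratio. Of the 72 genes, 34 were found in all 3 of these choices. Likewise 34 were found in all 9 choices with a single library left out, and these had a median of 10.1 CPM at RT 3 h against 4.01 CPM for the other 38. LOC107827622, LOC107799267, LOC107816586, LOC107776905, LOC107818994, LOC107808546, LOC107826232, LOC107785067 and LOC107769242 were among those found in all 9.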

How the data were processed

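Whole-number counts per gene were deposited for 9 libraries; per the labels and the paper's methods, the authors demultiplexed reads with bcl2fastq 2.17.1.14, aligned single-end reads of non-stranded mRNA libraries to the TN90 genome with STAR 2.5.2a and counted with featureCounts 1.5.0-p1. The handling of multi-mapping reads is not given in the sources used here. Here counts were scaled and tested in R 4.3.3 with edgeR 4.0.16 (TMM, full library totals, quasi-likelihood test, each comparison on its own 6 libraries, genes above 0.5 CPM in at least 2). FDR is Benjamini-Hochberg over all genes tested. SE is the absolute log2FC over the root of the F statistic. Log2 ratios are ratios of mean CPM, and log2FC values are from the fits. The scripts were tested on simulated data. Summaries were made with pandas 2.3.3 (Python 3.11.15). RPKM used merged exons of the deposited TN90 annotation, which gave all positions, and a reference table of the K326 assembly gave names and biotypes, with 66 of the 72 genes found in it. One gene that the rule leaves out is not reported here.

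The genes and lists were chosen with earlier results of these data known. Named genes were those of at least 10 CPM at RT 3 h, the 12 lowest growth ratios, those on the study's regulator and lipid lists, and the 3 genes on each side of each limit. Of these, the genes that matter to a result are printed. Keyword lists and marker lists by product description had been planned, but the annotation used holds no descriptions and they could not be applied. Marker names and the eIF-4A family came from the reference table after the files were seen. Homologs came from the study's lists and from a gene ontology sheet that was held in part, which gave 4 of them. Alternatives were DESeq2 1.42.0, its size factors in edgeR, the likelihood ratio test, no TMM, no filter, a minimum of 10 counts per library, a joint fit of all 9 libraries, a replicate block, other limits, and leaving out each library.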

Additional observations from a re-analysis of the deposited data

How the results depend on the processing

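The rule found 72 genes, and 178 without TMM (64 of the 72 among them), 38 with a heat limit of 0.25, 2 with a growth limit of -1.5 and 39 with a level of at least 5 CPM. Leaving out 1 library gave 61 to 116 genes, the highest without RT 3 h replicate 3, where 69 of the 72 were found. Choosing on 2 replicate numbers gave 78 to 112 genes, against 34 found in all 3 such choices. With the FDR limit alone, heat calls numbered 15 in place of 0, and calls under HS 3 + 3 h against RT 3 h numbered 66 in place of 42. The 64 growth calls ranged from 53 (without RT 3 h replicate 1) to 65 when 1 library was left out, and the 42 calls against RT 3 h from 36 to 46. Without TMM they were 72 and 63. Heat calls were 0 in every alternative with a fold limit. No log2FC of a single gene with a call turned its direction.

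Without TMM, all genes gave 135 higher and 339 lower growth calls, against 210 and 181 with it, 1170 higher and 1070 lower heat calls, against 1438 and 661, and 1161 higher and 2562 lower calls of HS 3 + 3 h against RT 3 h, against 1720 and 1150. Replicate numbers showed no clear pairing of the libraries: correlations of deviations between same-numbered libraries were -0.02 to 0.11, with 1 of 9 over 0.1. In 4 of these 9 comparisons the HS 3 + 3 h or RT 6 h library correlated best with its own number in the other condition. With 3 libraries per condition, these values cannot exclude a pairing. The replicate block gave 65 growth calls, 0 heat calls and 41 calls against RT 3 h among the 72 genes. Depth limits the genes of low level: the fewest counts of any of the 72 in a library was 4, and 58 had at least 10 in every library.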
